A study of Homo sapiens with 42 samples.

Results

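Interferon-stimulated genes (ISGs) were followed as a list of 39 genes in polyadenylated RNA of 786-O cells, a human clear cell renal cell carcinoma line that has lost VHL and makes no functional HIF-1α. The members are taken by gene symbol and not by their values in these libraries, although the list was drawn up with earlier results of these data known, and its 39 members are among 60609 genes listed in the files. All 39 passed the filter on low counts in both batches of the study. Type I interferons are secreted when a cell senses foreign nucleic acid. They bind the IFNAR1/IFNAR2 receptor, whose kinases JAK1 and TYK2 activate the factor ISGF3, which contains STAT2 and IRF9 and binds interferon-stimulated response elements (ISREs) in the promoters of ISGs. ISG products sense viral RNA, degrade it, block translation or modify proteins with the ubiquitin-like protein ISG15, and many tumor lines express part of the set without added interferon.

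The study made the HIF α subunits, or their partner HIF-1β, visible for imaging and sequenced RNA of the resulting lines. Batch 1 held 27 libraries, 3 for each of 9 lines. These were unedited wild-type (WT) cells, a HIF-1β knock-in clone (HIF-1β KIN, clone A21) and a HIF-2α knock-in clone (HIF-2α KIN, clone A31), each 1 clone in which both copies of the gene carry a V5-Halo tag at the N-terminus, and 6 lines that express a V5-Halo-tagged α subunit from the L30 promoter in addition to the cell's own genes. The 6 transgenes were HIF-1α, HIF-1α R30E (changed in the DNA-binding domain), HIF-1αDM (R170A and V191D, changed in the dimerization domain), HIF-2α, HIF-2α R27E (DNA-binding domain) and HIF-2αDM (R171A and V192D, dimerization domain). Batch 2 held 15 libraries, 3 each of WT, HIF-1α, HIF-2α and the chimeras HIF-2α/1α (residues 1 to 365 of HIF-2α joined to 364 to 826 of HIF-1α) and HIF-1α/2α (residues 1 to 363 of HIF-1α joined to 366 to 870 of HIF-2α), which exchange the structured N-terminal part and the C-terminal intrinsically disordered region (IDR). The transgenes were integrated with the PiggyBac transposase under puromycin selection while WT cells were not, and without an empty-vector line the effect of integration and selection cannot be told apart from that of the transgene in any comparison with WT. The replicates are biological replicates according to the study.

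Library totals ran from 42377599 to 101186554 counts in batch 1 and from 76366799 to 109642159 in batch 2. Levels are given as normalized counts, that is, counts scaled to the mean effective library size of the batch, and they are comparable between libraries of a batch but not between genes. Of 7 renal and epithelial markers PAX8, KRT8, KRT18, CDH6, VIM and PAX2 were present in every library (PAX8 from 18434 normalized counts upwards, PAX2 from 624), while CA9 ranged from 0 to 4612. Among 5 blood cell markers CD3E was at 0 and CD14 was highest (1.43 to 37.2), the 3 endothelial markers stayed below 10, and of the 2 plasmacytoid dendritic cell markers LILRA4 was at 0 and CLEC4C at 1 count or less. Of the 3 fibroblast markers DCN reached 5.39, LUM ran from 0 to 319 and COL1A1 from 496 to 2509, and the part of these differences in the results was not tested. The transgenes were visible in their lines: HIF1A averaged 243 normalized counts in batch 1 WT and 3036, 2518 and 2238 with HIF-1α, R30E and HIF-1αDM, and EPAS1, which encodes HIF-2α, averaged 14547 in WT and 45191, 56142 and 48508 with HIF-2α, R27E and HIF-2αDM. HIF1A was also higher in the line with HIF-2α (920 normalized counts, 3.76-fold), and EPAS1 was lower in HIF-2α KIN (log2 change -1.23, adjusted p = 0.000101, edgeR). The genotype label of the HIF-2αDM libraries names HIF-1α, but its other labels name HIF-2α, and HIF1A averaged 192 normalized counts there.

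Many of the members carry the ISRE core next to their start, and these sequences are shown for 6 members that the comparisons below turn on. RefSeq promoters (GRCh38.p14, 250 bases before to 50 after the start) were at hand for 32 of the 39 members, 43 promoters in all. The core was searched as GAAA, any 2 bases and GAAA, and as its reverse complement (TTTC, any 2 bases and TTTC), with overlapping matches counted. It occurred in 26 of the 43 member promoters (60.5%) and in 1255 of all 35116 promoters of the table (3.57%). The core was absent from all 3 promoters of CMPK2, from those of OAS1 and XAF1 and from the first promoter of RSAD2. Among the members with a promoter it was present in 11 of the 16 that were called higher in some transgene line and in 11 of the 16 that were not. The HIF-binding core ACGTG (or CACGT) occurred in 6 of the 43 member promoters (14.0%) and in 21.4% of all promoters, and by gene in 6 of the 16 members called higher in some transgene line, in 0 of the other 16 and in 24.9% of all genes of the table. These are matches of letters in a window, and binding was not measured here. In the stretches below, written 5′ to 3′ on the strand of the gene, capitals mark the ISRE core.

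IFI6, chr1:27672233-27672362, minus strand: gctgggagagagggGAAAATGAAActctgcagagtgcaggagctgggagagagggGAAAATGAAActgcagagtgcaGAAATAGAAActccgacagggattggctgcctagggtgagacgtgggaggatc
RSAD2, second promoter, chr2:6877607-6877666, plus strand: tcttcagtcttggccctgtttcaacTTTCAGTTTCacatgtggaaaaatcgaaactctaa
HERC5, chr4:88456979-88457068, plus strand: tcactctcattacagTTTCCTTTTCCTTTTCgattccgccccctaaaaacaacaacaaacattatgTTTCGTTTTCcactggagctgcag
EPSTI1, chr13:42992262-42992311, minus strand: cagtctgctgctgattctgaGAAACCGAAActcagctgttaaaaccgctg
IFI44L, chr1:78620273-78620397, plus strand: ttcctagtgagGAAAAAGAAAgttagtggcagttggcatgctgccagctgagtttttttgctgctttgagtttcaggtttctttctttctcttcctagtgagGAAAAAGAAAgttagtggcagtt
IFI27, chr14:94110616-94110665, plus strand: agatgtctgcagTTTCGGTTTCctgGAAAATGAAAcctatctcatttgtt

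IFI6 holds the core 3 times within this stretch and HERC5 holds it 3 times, the first 2 overlapping.

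In every line that carried a transgene, some ISGs were higher than in WT cells of the same batch, and the 10 transgene lines shared RSAD2, CMPK2 and IFI6 among them. A gene was called higher or lower when edgeR's quasi-likelihood test gave a Benjamini-Hochberg adjusted p of at most 0.01 over all genes tested and the change was at least 2-fold. By this rule 26 of the 39 members were called in at least 1 of the 12 comparisons with WT, 21 of them higher in a transgene line, and 19 members had a positive log2 change in all 10 transgene lines. Over the 22915 genes tested in both batches 17.1% were called in at least 1 of the 12 comparisons, 10.9% were called higher in some transgene line and 10.2% had a positive change in all 10. RSAD2, CMPK2 and IFI6 were among 34 genes (0.148%) called higher in all 10. The heatmap of log2 changes shows all members and lines side by side. The comparisons within a batch share their 3 WT libraries, so that the columns of a batch are not independent. Over all genes, the 3 libraries of a line all lay above WT for 6.06% to 15.1% in batch 1. In batch 2 this held for 17.1% to 21.6%. They all lay below WT for 4.92% to 16.7% in batch 1 and 17.1% to 21.5% in batch 2.

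**Figure D1:**
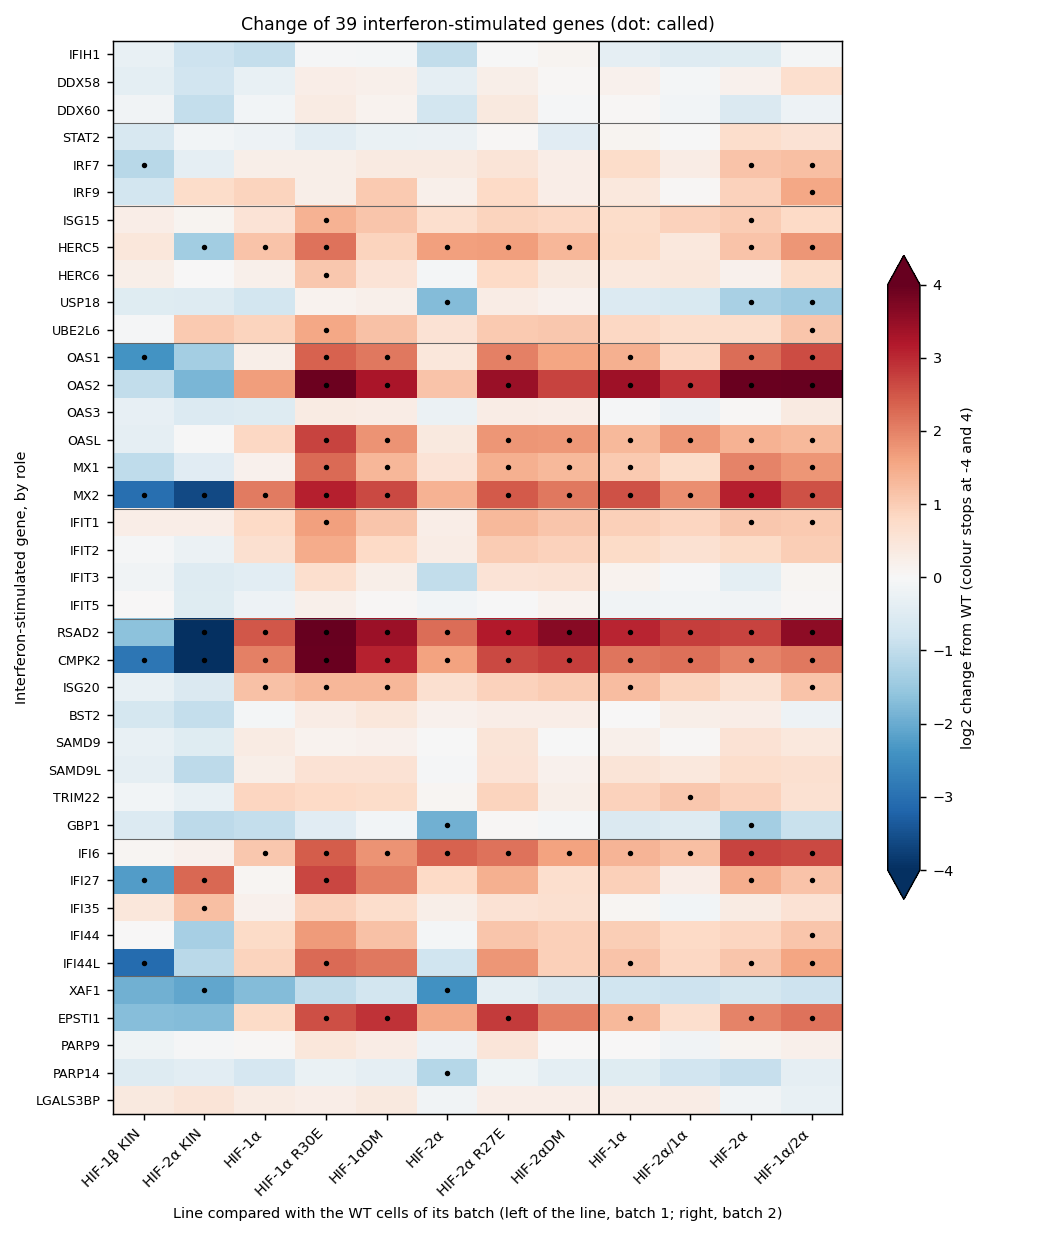
Log2 change from WT of the same batch for the 39 members (rows, grouped by role) in the 12 other lines (columns, batch 1 left and batch 2 right). The colour scale stops at -4 and 4 and a dot marks a call. RSAD2, CMPK2 and IFI6 have a dot in all 10 transgene columns, and the 2 KIN columns hold most of the lower values.

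In batch 1 the highest count was found with the DNA-binding mutant HIF-1α R30E, where 17 members were called, all higher, against 2.61% of all genes called in either direction. Its members had a median log2 change of 0.92 while the median over all genes was -0.04, and in 23 members all 3 R30E libraries lay above all 3 WT libraries, which 9.93% of all genes did. HIF-1αDM had 10 members called, all higher, where 0.457% of all genes were called (0.453% higher and 0.00427% lower), and its member median was 0.74. HIF-2α R27E likewise had 10, all higher, against 0.496% of all genes (0.449% higher and 0.047% lower), with a median of 0.79. HIF-2αDM had 7, all higher, against 0.474% (0.44% higher and 0.0342% lower), with a median of 0.59. In each of these 3 lines fewer than 1 in 100 genes were called.

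With intact HIF-α more genes were called. With HIF-1α 6 members were called, all higher (3.79% of all genes, median of members 0.24). With HIF-2α 4 members were higher and 4 lower (5.72%, median 0.18). Of these, the higher ones were IFI6, RSAD2, CMPK2 and HERC5 and the lower ones USP18, GBP1, XAF1 and PARP14. For the HIF-2α line the share of all genes called was 3.78% upwards and 1.94% downwards.

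In batch 2 the same constructs gave 11 members higher in the HIF-1α line (4.39% of all genes called, 3.9% upwards; median of members 0.72). With HIF-2α there were 15 higher calls and 2 lower ones (7.58%, 5.45% upwards; median 0.70). The chimera HIF-2α/1α had 7 members higher (3.49%, 2.98% upwards; median 0.41) and the chimera HIF-1α/2α had 18 higher and 1 lower (7.78%, median 0.80). In the plot of shares called, the red bars of members stand above the grey bars of all genes in the upward direction for each of the 10 transgene lines.

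**Figure D2:**
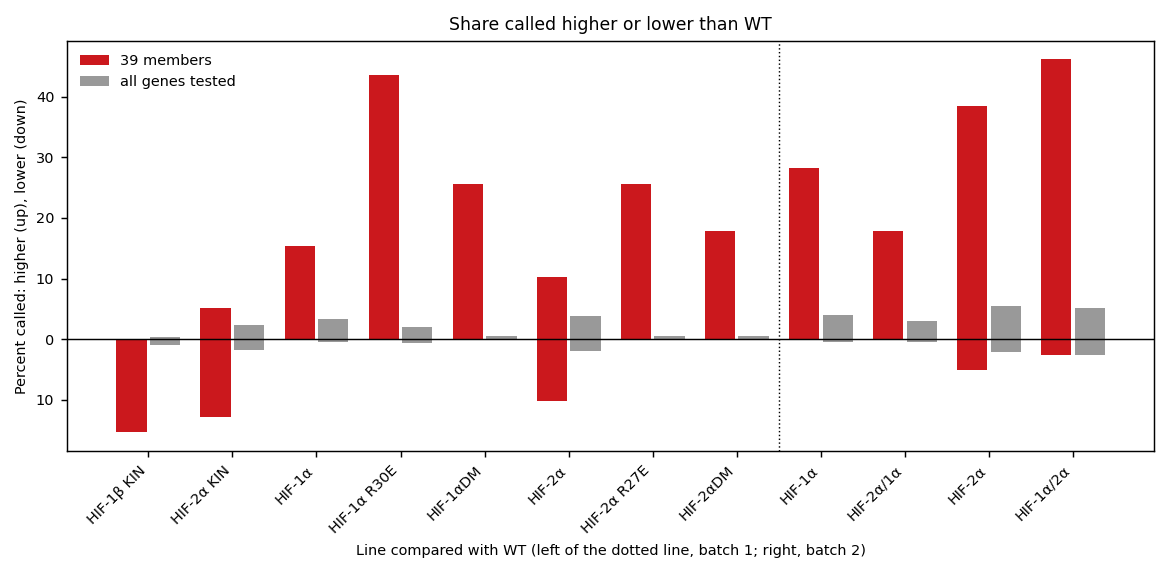
Percent of genes called higher (bars upward) and lower (bars downward) against WT in each of the 12 lines, for the 39 members (red) and for all genes tested (grey). With HIF-1α R30E 17 of 39 members were called higher against 2.04% of all genes.

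The 2 KIN clones went the other way. HIF-1β KIN had 6 members called, all lower (1.38% of all genes, 0.393% upwards and 0.982% downwards), with a member median of -0.36. HIF-2α KIN had 2 higher and 5 lower (4.14% of all genes, 1.79% downwards), with a median of -0.51. Over both clones 9 members were called lower, and 8 of these 9 were called higher in some transgene line. Of all 39 members 21 were called higher in some transgene line. No share over all genes was taken for the 9 or the 8.

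The median over the 39 members was also taken per library, as the difference in log2 CPM (counts scaled by the effective library size) from the WT mean. The values were 1.12, 0.85 and 1.04 with R30E, 0.91, 0.48 and 0.80 with HIF-1αDM and 0.86, 0.89 and 0.48 with R27E. With intact HIF-1α they were 0.40, 0.41 and 0.13, and with intact HIF-2α 0.30, 0.19 and 0.12. Every library of these 5 lines and of HIF-2αDM (0.52, 0.43 and 0.51) was thus above the WT mean, whereas the KIN libraries were all below it, at -0.45, -0.11 and -0.68 (HIF-1β KIN) or -0.76, -0.22 and -0.67 (HIF-2α KIN). In batch 2 the values ran from 0.34 for a library of HIF-2α/1α to 0.98 for the third library of HIF-1α/2α. Library 3 of that line and library 3 of HIF-2α (0.93) were higher than the other 2 of their lines (0.74 and 0.69, and 0.61 and 0.59).

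**Figure D3:**
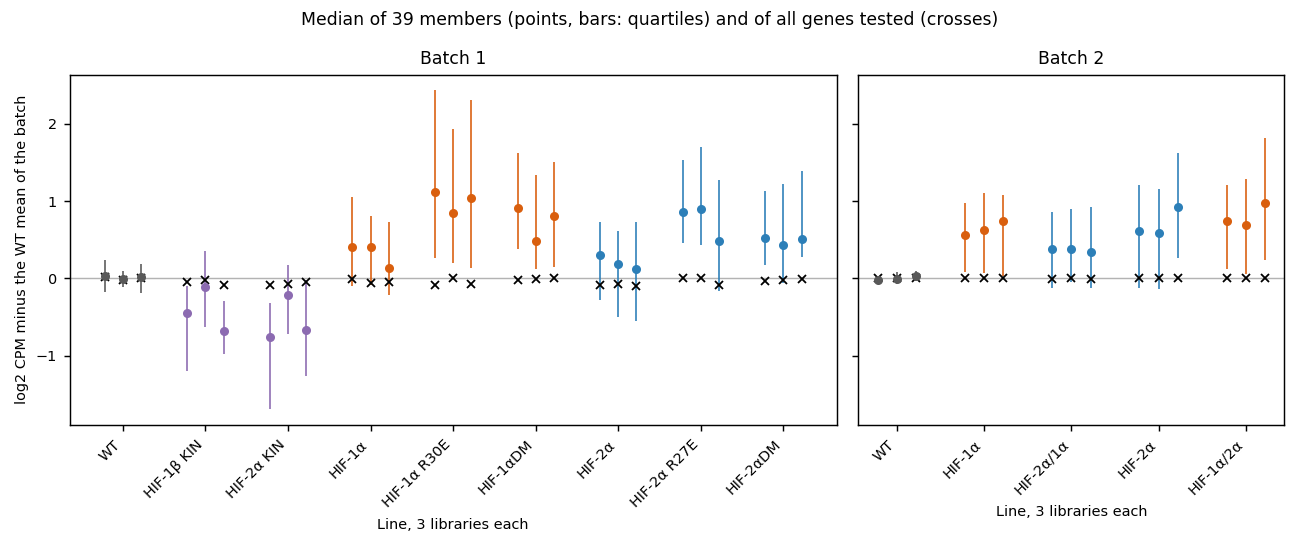
Median over the 39 members of the difference in log2 CPM from the WT mean of the batch, for each of the 42 libraries (points; vertical bars, quartiles over members; crosses, median over all genes). The R30E libraries sit at 0.85 to 1.12 and the libraries of both KIN clones below 0.

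Several of these counts rested on individual libraries. The HIF-1β KIN count of 6 fell to 3 without its library 1, 2 or 3. The HIF-1α count of 6 in batch 1 fell to 3 without its library 2 or 3 or WT library 1, to 1 without WT library 2 and to 2 without WT library 3. The HIF-1αDM count of 10 fell to 5 without its library 1, 6 without its library 3 and 5, 4 and 5 without WT library 1, 2 and 3. The R27E count of 10 fell to 4, 4 and 6 without WT library 1, 2 and 3, and to 0 when only R27E and WT entered the edgeR fit (DESeq2 called 12, and 23 members had an unadjusted p below 0.05 in the fit of all lines). The HIF-2αDM count of 7 fell to 4 without its library 1, to 3 without its library 3 and to 3 without any 1 WT library. The counts for R30E (14 to 17 on leaving out a library), HIF-2α KIN (6 to 7), HIF-2α in batch 1 (6 to 9) and all 4 lines of batch 2 moved less than 1.5 times. Of the 125 member calls against WT 73 held under every alternative tried and in none did the direction turn.

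By role, the OAS and MX proteins (OAS enzymes, whose product triggers RNA decay, and the antiviral MX GTPases) had 37 calls in 60 tests over the 10 transgene lines, all higher, with a median log2 change of 1.70. Over all genes 2.92% of the tests in these lines were called higher and 0.938% lower. The other antiviral effectors had 26 higher and 2 lower of 80 (median 0.59), the IFI-named genes 18 higher of 50 (median 1.02) and the ISG15 conjugation genes with 12 higher and 3 lower of 50 (median 0.75). The IFIT family, which binds foreign RNA ends, had 3 higher of 40 (median 0.56), the ISGF3 and IRF factors 3 higher of 30 (median 0.29), and the RNA sensors IFIH1 (MDA5), DDX58 (RIG-I) and DDX60 had no call by edgeR in 30 tests, 9 of them with an unadjusted p below 0.05 against 24.3% of the tests over all genes (median -0.05). The 5 members of no such role had 6 higher and 2 lower of 50 (median -0.06). The median of the sensors lay between -0.83 in HIF-2α KIN and 0.26 over the 12 comparisons.

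RSAD2 and CMPK2 lie head to head on chromosome 2 (RSAD2 6865557 to 6898239, plus strand; CMPK2 6840570 to 6866635, minus strand; GRCh38) and their exons overlap by 6.2% and 8.0% of their lengths, so that part of their reads cannot be assigned without strand. RSAD2 encodes viperin, which makes the chain terminator ddhCTP, and CMPK2 a mitochondrial nucleotide kinase. RSAD2 had 9.99, 21 and 13.6 normalized counts in WT of batch 1. It had 341, 291 and 375 with R30E, 130.5, 182 and 166 with HIF-1αDM, 123, 195 and 81.1 with R27E and 127, 202 and 228 with HIF-2αDM. With intact HIF-1α and HIF-2α it had 91.1, 68.2 and 91.3 and 94.3, 46 and 73.4. Each of these 18 libraries was above each WT library.

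The RSAD2 log2 change was 4.50 ± 0.487 (SE; adjusted p = 7.27e-07, edgeR) with R30E, 3.43 with HIF-1αDM, 3.18 with R27E and 3.65 with HIF-2αDM, against 2.50 ± 0.464 with HIF-1α and 2.25 ± 0.467 with HIF-2α (adjusted p = 0.00144, edgeR). The HIF-2α call ended without that line's library 1 (adjusted p = 0.0101, edgeR) or WT library 1 (0.0138). In batch 2 RSAD2 went from 30.3, 42 and 43.3 in WT to 353, 326 and 278 with HIF-1α, 284, 284 and 210.3 with the chimera HIF-2α/1α, 235, 186 and 335 with HIF-2α and 437, 478 and 456 with the chimera HIF-1α/2α. No library overlapped WT, and the log2 changes were 3.04, 2.76, 2.72 and 3.57. In HIF-2α KIN no read was counted in any of the 3 libraries, which with a floor of 3 counts is at least 3.47-fold lower than WT.

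CMPK2 moved in the same lines. It had 15.8, 15.3 and 30.0 normalized counts in batch 1 WT, 419.9, 205 and 329.6 with R30E (log2 change 3.95, adjusted p = 5.21e-07, edgeR) and 71.2, 82.1 and 94.9 with HIF-1α (2.01). The groups did not overlap. The HIF-1α call was lost without WT library 1 (adjusted p = 0.0185, edgeR) or WT library 2 (0.0174), and the HIF-2α call (1.61) without its library 2 or 3 or WT library 1 or 2, where the adjusted p ran up to 0.0682 (edgeR). Both clones were lower: 3 counts were found in the 3 HIF-2α KIN libraries against 77 in WT, a depth-scaled ratio of 18.7 (95% exact interval of the counts 6.15 to 92.5), and 8 in HIF-1β KIN, a ratio of 7.97 (3.85 to 19.1). The HIF-1β KIN call was lost without its library 1 (adjusted p = 0.0148, edgeR) or 3 (0.0216), without WT library 3 (0.019), without the libraries numbered 3 (0.088) and with only these groups in the fit (0.134).

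**Figure D4:**
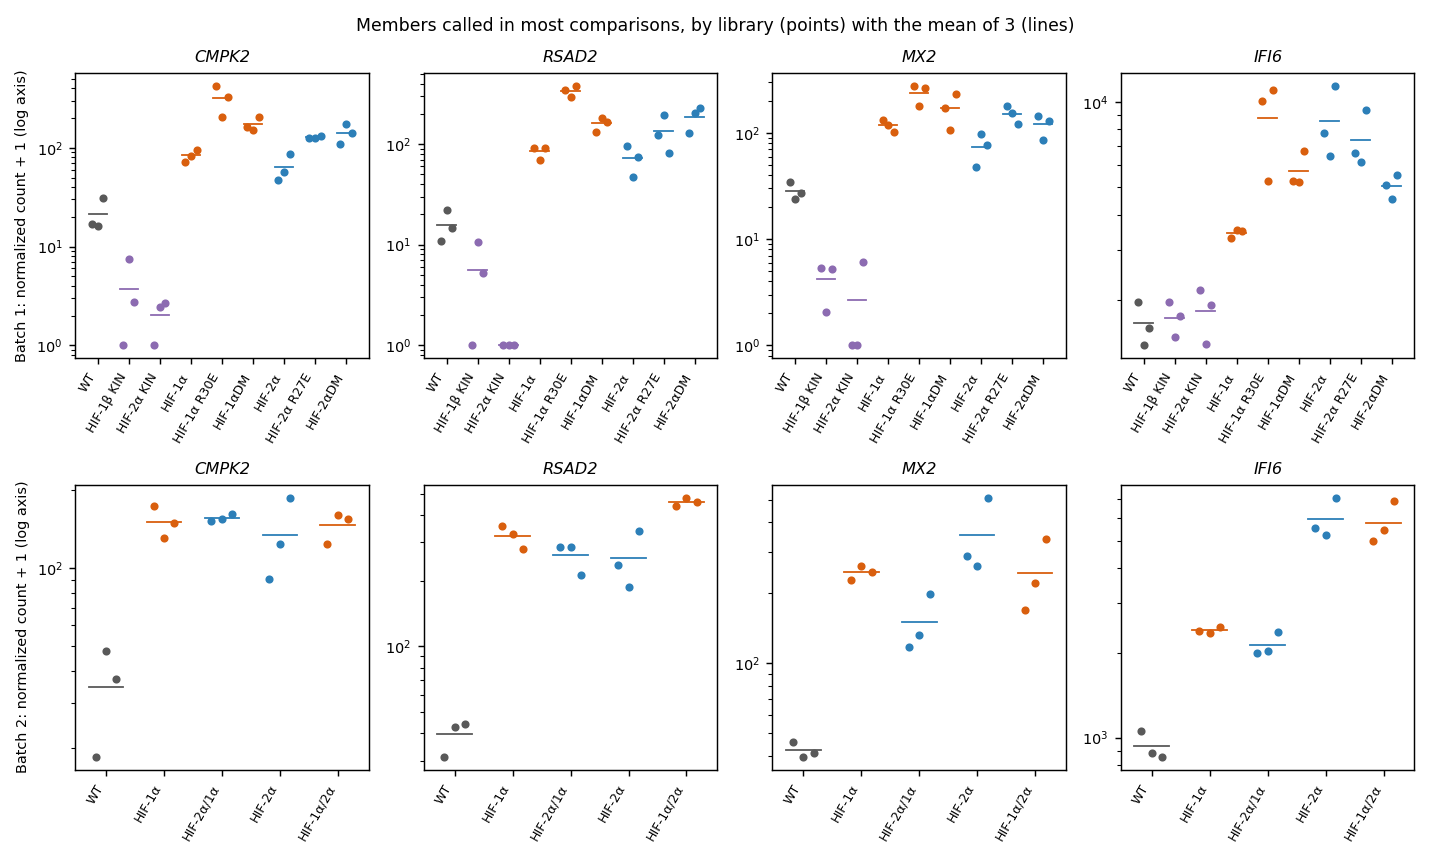
Normalized count + 1 (log axis) of CMPK2, RSAD2, MX2 and IFI6 in each library (points; lines, mean of 3), batch 1 in the upper and batch 2 in the lower panel row, by line; colours mark WT (grey), KIN clones (purple) and the HIF the structured part comes from (HIF-1α orange, HIF-2α blue), and a count of 0 is drawn at 1. RSAD2 lies at 9.99 to 21 in batch 1 WT, at 291 to 375 with HIF-1α R30E and at 0 in the 3 HIF-2α KIN libraries.

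IFI6 (chromosome 1, 27666064 to 27672212, minus strand), which encodes a small mitochondrial and endoplasmic reticulum protein, was called higher in all 10 transgene lines. It had 1981, 1389 and 1602 normalized counts in batch 1 WT, 7793, 6439 and 11355 with HIF-2α, 10090, 5254 and 10969 with R30E and 3327, 3542 and 3508 with HIF-1α. Its log2 change was 2.35 with HIF-2α (adjusted p = 8.93e-08, edgeR), 2.41 with R30E, 2.17 with R27E and 1.07 with HIF-1α (0.00365). In all these lines each library was above WT. The HIF-1α call ended without that line's library 2 or 3 or WT library 2 or 3 (adjusted p up to 0.0335, edgeR). The 2 KIN clones, at 1968, 1488 and 1754 and at 2167, 1407 and 1930, overlapped WT. IFI6 shares 23.1% of its exon length with the noncoding gene LINC02574 on the same strand.

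Of the OAS genes, which lie in a row on chromosome 12, OAS1 and OAS2 were called. OAS3 was not, as its change stayed below 2-fold in every line (log2 changes from -0.55 to 0.35). OAS1 (112905856 to 112933219) had 139.8, 121 and 119.9 normalized counts in batch 1 WT, 767, 633 and 542 with R30E, 747, 366 and 507 with HIF-1αDM, 731, 574 and 237 with R27E and 228, 128 and 93.1 with HIF-1α. The HIF-1α libraries overlapped WT and those of the 3 mutants did not, with log2 changes of 2.35 (R30E, adjusted p = 9.66e-05, edgeR), 2.10 (HIF-1αDM) and 2.03 (R27E). The HIF-1αDM call needed its library 1 and each WT library (adjusted p up to 0.0204 without one of them, edgeR), and the R27E call its libraries 1 and 2 and each WT library (up to 0.0233). OAS1 was lower in HIF-1β KIN, at 33.8, 24.6 and 15.4 (log2 change -2.38, adjusted p = 0.000416, edgeR), under every alternative.

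OAS2 was barely expressed in WT, with 18.3, 1.91 and 17.8 normalized counts in batch 1 and 30.3, 17 and 36.3 in batch 2. In batch 2 it reached 463, 586 and 925 with HIF-1α/2α, 329, 280.2 and 643 with full-length HIF-2α, 184, 216 and 196 with the chimera HIF-2α/1α and 262, 293 and 299 in the HIF-1α line. The log2 changes were 4.60, 3.94, 2.88 and 3.38 in this order, and no library overlapped WT. In batch 1 the call stood with R30E (256, 167 and 172, log2 change 3.93, adjusted p = 0.000303, edgeR). With HIF-1αDM (3.27) and R27E (3.44) it was lost on leaving out any 1 library other than the third of R27E (adjusted p up to 0.0725 and 0.0465, edgeR).

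OASL, an OAS relative that augments RIG-I signaling, was near 200 normalized counts in WT (178, 187 and 213) and at 1256, 1276 and 1239 with R30E, 652, 647 and 696 with HIF-1αDM and 599.6, 722 and 605 with HIF-2αDM. None of these libraries overlapped WT. The log2 change was 2.71 with R30E (adjusted p = 7.88e-06, edgeR), 1.80 with HIF-1αDM, 1.75 with R27E and 1.74 with HIF-2αDM. The calls for HIF-1αDM and HIF-2αDM did not survive leaving out any 1 of their own or the WT libraries (adjusted p up to 0.0545 and 0.0582, edgeR), and that for R27E ended without its library 2 or any WT library (up to 0.0596). In batch 2 OASL was 1.29 to 1.72 above WT in log2 terms and highest with HIF-2α/1α (623, 593 and 547 against 190.4, 209.9 and 137).

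MX1 and MX2 are neighbors on chromosome 21. MX1 had 168, 188 and 216 normalized counts in batch 1 WT and 206, 228 and 213 with HIF-1α, but 1153, 577 and 1036 with R30E. The R30E libraries were all above both other lines (log2 change from WT 2.28, adjusted p = 7.82e-07, edgeR). The MX1 calls of HIF-1αDM (1.31), R27E (1.42) and HIF-2αDM (1.28) were smaller, and each ended without WT library 1 or 2 and without the line's own library 1 (adjusted p up to 0.0589, 0.0296 and 0.0611, edgeR). Those of HIF-1αDM and HIF-2αDM also ended without the line's library 3 or WT library 3. In batch 2 MX1 went from 208, 236 and 198 in WT to 650.5, 578 and 1283 with HIF-2α (1.98) and 315, 427 and 581 with HIF-1α. The HIF-1α change of 1.04 fell below 2-fold without that line's library 3 (0.79) or WT library 3 (0.99), and with the replicate numbers as a block (0.98), and DESeq2 did not call it (adjusted p = 0.0196).

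MX2 was called higher in 9 of the 10 transgene lines, with HIF-2α of batch 1 as the exception (46.3, 96.5 and 76.7 against 33.3, 22.9 and 26.4 in WT). With R30E it had 275, 178 and 266 normalized counts (3.12, adjusted p = 1.91e-05, edgeR), and in batch 2 the largest value was that of HIF-2α, 286, 258 and 510.1 against 44.9, 38.7 and 40.3 (3.10). MX2 was lower in both clones, where the HIF-1β KIN libraries held 10 counts in all and those of HIF-2α KIN 6, against 101 in WT (depth-scaled ratios 8.36, interval 4.36 to 18.0, and 12.2, interval 5.43 to 34.2). Some of the MX2 calls depended on a library. The HIF-1β KIN call ended without that clone's library 2 (adjusted p = 0.0135, edgeR), the HIF-1α call without WT library 2 (0.0146) or 3 (0.0109), the HIF-1αDM call without WT library 2 (0.0135), the R27E call without any 1 WT library (up to 0.0211), and the HIF-2αDM call without its library 1 or 3 or any WT library (up to 0.0752).

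Among the IFI-named genes IFI27, whose product sits in mitochondria and the nuclear envelope, separated the 2 clones. It had 261, 259 and 176 normalized counts in batch 1 WT, 79.6, 42.7 and 29.1 in the HIF-1β KIN clone, and 1719, 1056 and 614 in that of HIF-2α. Between the clones 2 members were called, IFI27 and HERC5, where 2.45% of all genes were (1.58% higher in HIF-2α KIN). The 3 groups did not overlap for IFI27, and the clones differed by a log2 change of 4.51 ± 0.498 (adjusted p = 5.79e-07, edgeR), HIF-2α KIN being higher. IFI27 was the only member called in opposite directions in the 2 clones (2.29 and -2.22 against WT), but the HIF-1β KIN call ended without its library 2 or 3 or WT library 1 or 2 (adjusted p up to 0.043, edgeR). With R30E it had 2082, 1031 and 1313 (2.67). IFI35 was called higher in HIF-2α KIN (1.20, adjusted p = 1.65e-05, edgeR) and in no other line, and IFI44 was called with HIF-1α/2α alone (1.12, and 0.96 without that line's library 3). The IFI44 change was larger, up to 1.72, in another transgene line without a call, and it was positive in 9 transgene lines.

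IFI44L, a member of unclear function next to IFI44 on chromosome 1, had 24.1, 22.9 and 37.8 normalized counts in batch 1 WT, 133, 135 and 141 with R30E, 20.8, 10.4 and 18.4 with HIF-2α and 2.18, 3.2 and 4.28 in HIF-1β KIN. R30E lay above WT and the other 2 lines below it. The call was higher for R30E (2.26, adjusted p = 0.00214, edgeR) and lower for HIF-1β KIN (-3.07, 0.00158). The R30E call was lost without WT library 1 or 2 (up to 0.0213, edgeR), and the HIF-1β KIN call without its library 1 or 2 or WT library 3 (up to 0.0176). In batch 2 the values were 118, 96.9 and 163 in WT and 272, 309 and 528 with HIF-1α/2α (1.57). The HIF-1α change (1.15) fell just below 2-fold without WT library 2 (0.99) or that line's library 3 (0.997), and the HIF-2α change (1.10) did so without WT library 2 (0.94) or that line's library 3 (0.57). DESeq2 called neither (adjusted p of 0.012 for both).

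EPSTI1, known for interferon-induced expression in epithelial and stromal cells, had 15, 22.9 and 38.5 normalized counts in batch 1 WT, 169, 113 and 178 with R30E, 194, 95.6 and 274 with HIF-1αDM and 222, 136 and 176 with R27E. All 9 mutant libraries were above WT. The log2 changes were 2.58, 2.88 and 2.81 (adjusted p = 0.000204, 0.000312 and 0.000363, edgeR). ISG20, a 3′ to 5′ exonuclease, was called higher in 5 lines by 1.13 to 1.33 in log2 terms. In batch 1 these calls were among the least stable: HIF-1α lost it on leaving out any 1 of the 6 libraries, R30E without its library 1 or 3 or WT library 1 or 2, and HIF-1αDM without its library 1 or 3 or any WT library (adjusted p up to 0.0378, 0.0229 and 0.0818, edgeR), and in batch 2 the HIF-1α/2α call fell below 2-fold without its library 3 (0.96) or WT library 3 (1.00).

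The ISG15 conjugation genes split. HERC5, the main ISG15 ligase, had 74.1, 64.9 and 84.2 normalized counts in batch 1 WT, 367, 261 and 380.4 with R30E (2.18, adjusted p = 4.41e-06, edgeR), 192, 232 and 283 with HIF-2α (1.65) and 182, 249 and 273 with R27E (1.67). In HIF-2α KIN it was lower, at 22.1, 31.4 and 30.3 (-1.40, 0.00151), and in HIF-1β KIN it overlapped WT at 74.1, 139.9 and 94.2. The 2 clones differed by -1.86 (adjusted p = 9.8e-05, edgeR). The KIN call against WT ended without that clone's library 1 (0.0151), that of HIF-1α (1.13) without any 1 of its own or the WT libraries (up to 0.0445), that of R27E without WT library 2 (0.0108) and that of HIF-2αDM (1.33) without its library 2 or 3 or any WT library (up to 0.0808). In batch 2 it was highest with HIF-1α/2α (956, 796 and 1092 against 305, 295 and 243, log2 change 1.77).

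ISG15 itself was called higher with R30E (22016, 10478 and 18337 normalized counts against 5388, 5860 and 8310; 1.38, adjusted p = 0.000488, edgeR) and with HIF-2α of batch 2 (6251, 5423 and 8302 against 3298, 3271 and 3395; 1.02). The second change was 0.83 without the third HIF-2α library. The conjugating enzyme UBE2L6 was called with R30E (1.54; adjusted p = 0.0146, edgeR, without WT library 3) and with HIF-1α/2α (1.12), and HERC6 with R30E (1.08; 0.98 without that line's library 1 and 0.96 without WT library 1). USP18, which removes ISG15 and dampens the interferon receptor, went down.

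USP18 (chromosome 22, 18150118 to 18177397) was the member called lower most often, in the HIF-2α lines of both batches and in HIF-1α/2α. It had 937, 877 and 604 normalized counts in batch 1 WT, 334, 197 and 208 with HIF-2α, 1206, 1252 and 516 with R27E and 1020, 921 and 770.4 with HIF-2αDM. HIF-2α lay below WT and below both mutants without overlap. The log2 change was -1.72 ± 0.307 (adjusted p = 0.000211, edgeR) against WT, -2.04 against R27E (4.18e-05) and -1.90 against HIF-2αDM (8.94e-05), and all 3 held under every alternative. In batch 2 USP18 had 1287, 1233 and 1430 in WT, 855, 864 and 988 with HIF-1α, 849, 809.9 and 879 with the chimera HIF-2α/1α, 535, 421 and 638 with HIF-2α (-1.29, adjusted p = 7.77e-14, edgeR) and 451, 482 and 529 with the chimera HIF-1α/2α (-1.42, 4.52e-15). All 4 transgene lines were below WT without overlap, and the 2 with the HIF-2α IDR were lowest. In a single line of batch 2, 17.1% to 21.5% of all genes lay below WT without overlap. Reads shared with its near-identical copy USP41 were not counted, since only uniquely aligned reads were.

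GBP1, a guanylate-binding GTPase induced by both interferon types, followed USP18. It had 2196, 1895 and 1515 normalized counts in batch 1 WT, 578, 465 and 456 with HIF-2α, 2631, 2411 and 746 with R27E and 2116, 1789 and 1400 with HIF-2αDM. The change with HIF-2α was -1.92 ± 0.339 against WT (adjusted p = 0.000193, edgeR), -1.97 against R27E and -1.84 against HIF-2αDM, again under every alternative. In batch 2 it went from 5156, 5065 and 5445 in WT to 1725, 1809 and 2482 with HIF-2α (-1.36, 6.67e-17), 2608, 2515 and 3212 with the chimera HIF-1α/2α, 3596, 3259 and 3951 with HIF-2α/1α and 3647, 3382 and 3549 in the HIF-1α line. All 12 transgene libraries were below WT, and of the 4 lines HIF-2α alone passed the 2-fold threshold.

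**Figure D5:**
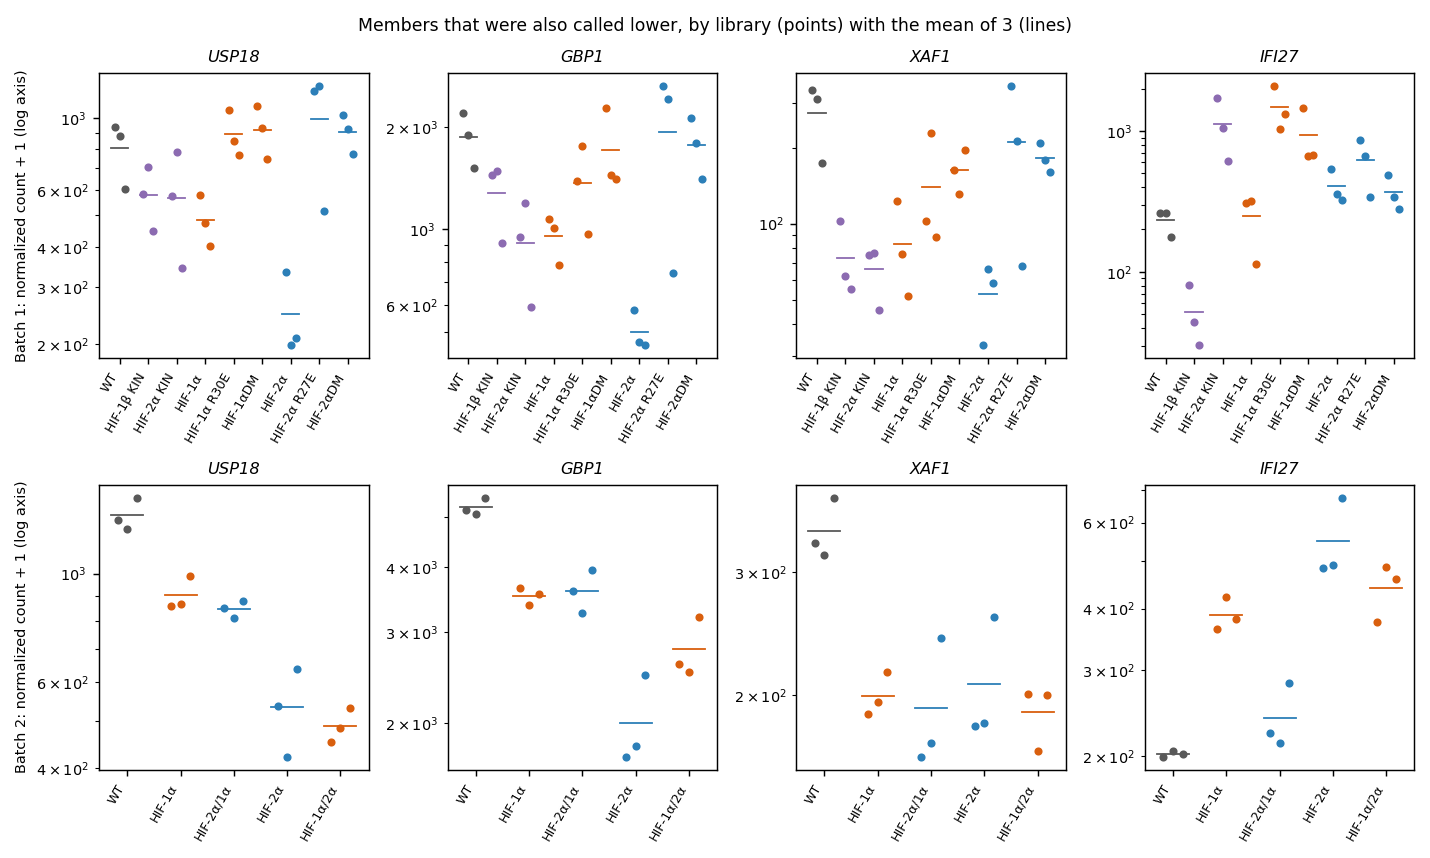
Normalized count + 1 (log axis) of USP18, GBP1, XAF1 and IFI27, each called lower in some line, in each library (points; lines, mean of 3), batch 1 in the upper and batch 2 in the lower panel row, by line, with WT grey, KIN clones purple and the lines with the structured part of HIF-1α orange and of HIF-2α blue. USP18 lies at 197 to 334 with HIF-2α in batch 1 and at 516 to 1252 with HIF-2α R27E.

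XAF1, a pro-apoptotic zinc finger protein, had 339, 311 and 173 normalized counts in batch 1 WT, 32, 65.3 and 57.2 with HIF-2α (-2.42, adjusted p = 0.000683, edgeR) and 74.1, 75.6 and 44.7 in HIF-2α KIN (-2.08, 0.00322). Both groups lay below WT. The HIF-2α KIN call was lost without any 1 of its libraries or WT library 1 or 2 (up to 0.0264, edgeR). XAF1 shares 38.3% of its exon length with the antisense gene PRAL. PARP14, a mono-ADP-ribosyltransferase, was lower with HIF-2α of batch 1 (1264, 1288 and 1474 against 2828, 3190 and 2752; -1.14, adjusted p = 0.000312, edgeR). Both genes had a negative change in every transgene line of both batches. The log2 changes ran from -2.42 to -0.38 for XAF1 and from -1.14 to -0.17 for PARP14.

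In batch 1 the third libraries stood apart for part of the members. The library numbered 3 was the lowest of its line in all 9 lines for GBP1, IFIT3 and TRIM22 and in 8 of 9 for USP18 and UBE2L6. In the R27E line this set the third library (746 normalized counts of GBP1 and 516 of USP18) well below the other 2. For other members another number stood out. The library numbered 1 was the highest in all 9 lines for OAS1, and that numbered 2 was the lowest in 8 of 9 for IFI6. No share over all genes was taken, and what sets libraries of a number apart was not tested.

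Of the IFIT family, clustered on chromosome 10, IFIT1 alone was called against WT. IFIT1 had 226, 169 and 144 normalized counts in batch 1 WT and 558, 695 and 425 with R30E (1.64, adjusted p = 0.00187, edgeR), without overlap. In batch 2 it went from 709, 739 and 656 to 1232, 1234 and 1897 with HIF-2α (1.07) and 1186, 1431 and 1732 with the chimera HIF-1α/2α (1.06). The R30E call was lost without that line's library 2 or WT library 2 or 3 (adjusted p up to 0.0201, edgeR), and the 2 changes of batch 2 fell to 0.83 and 0.91 without the third library of the line. IFIT2 reached 1.49 with R30E, and IFIT3 ran from -0.98 with HIF-2α of batch 1 to 0.66 with R30E.

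Among the factors, IRF7, which drives interferon genes, was lower in HIF-1β KIN (179, 236 and 164 normalized counts against 359, 490.3 and 394; -1.11, adjusted p = 0.00234, edgeR). That call ended without the clone's library 1 or 3 or WT library 2 (up to 0.0263). It was higher in batch 2 with HIF-2α (503, 424 and 688 against 237, 235 and 273; 1.13, and 0.92 without that line's library 3) and HIF-1α/2α (1.21, and 0.98 without library 3). IRF9 was called with HIF-1α/2α alone (1.53) on 12.1 to 51.7 normalized counts, and the call ended without that line's library 1 or 3 or WT library 1 or 2 (adjusted p up to 0.0303, edgeR). STAT2 was not called, nor were BST2, SAMD9, SAMD9L, PARP9, LGALS3BP and IFIT5 in any of the 12 comparisons. TRIM22, an antiviral ubiquitin ligase, was called with HIF-2α/1α alone (2247, 2413 and 2115 against 1052, 1065 and 1145; 1.07), although HIF-1α (2138, 2120 and 1892) and HIF-2α (2037, 1833 and 2219) also lay above WT without overlap.

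The mutants ask whether a change needs a HIF-α that can bind DNA or dimerize, and the direct comparisons showed members lower with the intact protein. Each construct is 1 line in a batch, so that line and construct cannot be told apart in these comparisons. Against R30E, HIF-1α had 8 members called, all lower (1.75% of all genes called, 0.329% downwards), with a member median of -0.85. These were OAS1 (-2.11), IFI6 (-1.34), EPSTI1 (-1.81), RSAD2 (-2.00), CMPK2 (-1.94), OASL (-1.87), MX1 (-2.09, adjusted p = 3.28e-06, edgeR) and IFI27 (-2.59), of which IFI6, IFI27, MX1 and OAS1 held under every alternative. The count was 5 without HIF-1α library 1, 4 without its library 2, and 5 without R30E library 1 or 3.

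Against HIF-1αDM, HIF-1α had 4 members called, all lower (1.37% of all genes, 0.158% downwards): OAS1 (-1.86), EPSTI1 (-2.11), MX1 (-1.13) and IFI27 (-1.94). The count was 2 without HIF-1α library 1, 1 without HIF-1αDM library 3, and 0 without HIF-1α library 2 or 3 or HIF-1αDM library 1. The 2 mutants differed in HERC5 alone (0.5% of all genes called, 0.32% upwards), which was higher with R30E (1.29, adjusted p = 0.00911, edgeR). That call was lost without R30E library 1 or 3 or any 1 HIF-1αDM library, and 2 members were called without R30E library 2.

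Against R27E, HIF-2α had 5 members called, all lower (3.63% of all genes, 2.09% upwards and 1.53% downwards; member median -0.79): USP18, GBP1, IFI44L (-2.55), OAS1 (-1.57) and XAF1 (-2.04). With the replicate numbers as a block, which pair the libraries of these lines, 10 were called, and without the third R27E library 11. Without HIF-2α library 1 or 2 the count was 3 and 2, and without R27E library 1 or 2 it was 3. Against HIF-2αDM, HIF-2α had 4 called, all lower (3.96% of all genes, 2.48% upwards and 1.48% downwards; member median -0.50): USP18, GBP1, IFIH1 (-1.07) and IFIT3 (-1.57). The count was 2 without HIF-2α library 1 or 2 or HIF-2αDM library 1 or 3. USP18 and GBP1 were called in both of these comparisons under every alternative, and both comparisons use the same HIF-2α libraries.

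The chimeras ask which part of the protein goes with a change. Here too each construct is 1 line, so that line and construct cannot be told apart. The p-values measure the spread between libraries and not between independent lines. The 2 lines with the HIF-2α IDR were compared with the 2 lines with the HIF-1α IDR, and 4 members were called, all higher with the HIF-2α IDR (4.41% of all genes called, 1.9% upwards; member median 0.18, and 0.051 without the libraries numbered 3). IFI6 had 5517, 5229 and 7100 normalized counts with HIF-2α and 4980, 5452 and 6920 with the chimera HIF-1α/2α, against 2002, 2026 and 2373 with HIF-2α/1α and 2397, 2347 and 2459 in the HIF-1α line. The lines fell into 2 sets by IDR without overlap (difference 1.38 ± 0.0665, adjusted p = 7.2e-22, edgeR). OAS1 had 594, 437 and 976 and 588, 813 and 1169 with the HIF-2α IDR, against 306, 418 and 433 and 198, 238 and 318 (1.29, 2.82e-10), again without overlap. IFI6 and OAS1 held under every alternative.

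OAS2 (1.14) and EPSTI1 (1.09) were the other 2 calls by IDR. Both fell below the threshold without the third library of HIF-2α or of HIF-1α/2α, which left a count of 2. MX1 (0.98), HERC5 (0.87), USP18 (-0.77, adjusted p = 1.9e-11, edgeR) and GBP1 (-0.58) differed by less than 2-fold. Grouped instead by the structured N-terminal part, HIF-2α against HIF-1α, no member was called by edgeR or DESeq2 (1.04% of all genes were), though 26 of 39 had an unadjusted p below 0.05. The member median was -0.21, and the values ran from -0.58 for OAS2, -0.57 for RSAD2 and -0.49 for HERC5 to 0.35 for BST2.

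HIF-1α and HIF-2α were each measured in both batches, which differed in RNA extraction and library preparation. The difference of the responses (batch 2 minus batch 1) had a member median of 0.09 for HIF-1α and 0.34 for HIF-2α. No member was called for either by edgeR or DESeq2, with 1 and 13 members below an unadjusted p of 0.05, and across all genes 0.00374% and 0% were called. The 1 gene called for HIF-1α was HIF1A itself, at 12.5-fold over WT in batch 1 and 44.8-fold in batch 2. EPAS1 in the HIF-2α lines was at 3.08-fold and 3.37-fold. The HIF-1α lines of the 2 batches thus differed in transgene level, and the part of this in the member changes was not tested. For HIF-2α the fitted differences were 2.65 for OAS2 (adjusted p = 0.19, edgeR), 1.74 for IFI44L and 1.63 for OAS1, and with the replicate numbers as a block 5 members were called, MX1, MX2, OAS1, OAS2 and XAF1.

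Other genes of the interferon pathway were read from a second list of 51 genes, of which 40 could be tested in batch 1 and 42 in batch 2. Each comparison with WT called 0 to 3 of them by edgeR and by DESeq2, where 0.457% to 7.78% of all genes were called by edgeR. At an unadjusted p below 0.05 there were 1 to 16 in batch 1, against 7.5% to 26% of all genes. In batch 2 there were 27 to 30, against 31.4% to 41.2%. Negative log2 changes outnumbered positive ones with HIF-1α (31 to 9) and HIF-2α (30 to 10) of batch 1, with medians of -0.24 and -0.47. This also held with HIF-1α (30 to 12) and HIF-2α/1α (31 to 11) of batch 2, with medians of -0.17 and -0.24. The KIN clones had 29 to 11 (HIF-1β) and 31 to 9 (HIF-2α). In the mutant lines the medians ran from -0.02 to 0.13. Over all genes these medians ran from -0.09 to 0.03. The ligand genes IFNB1, IFNA1, IFNK, IFNL2, IFNL3 and IFNG were at or near the floor of 3 counts in every library. IFNE, an epithelial type I interferon, was called in batch 2, with 0, 5.65 and 1.01 normalized counts in WT, 24.2, 19.5 and 20.0 with HIF-1α (3.09, adjusted p = 0.00555, edgeR) and 17.9, 50.3 and 1.16 with HIF-2α (3.23), the last overlapping WT.

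Of the interferon receptor genes IFNLR1, the interferon lambda receptor, was called lower with HIF-1α/2α (-1.15). GBP2, a relative of GBP1, was the pathway gene called most often. It had 298, 279 and 203 normalized counts in batch 1 WT and 33.5, 17.8 and 18.4 with HIF-2α (-3.51 against WT and likewise -3.51 against R27E). In batch 2 it went to 47.7, 66.3 and 60.4 with HIF-2α (-3.27) and 69.4, 27.2 and 82.9 with the chimera HIF-1α/2α (-3.20), and it was lower with the HIF-2α IDR than with the HIF-1α IDR (-2.37). GBP1 and GBP2 were thus lower in the HIF-2α lines of both batches, while GBP4 had no read in HIF-2α KIN (at least 4.91-fold lower than WT) and was higher with HIF-1α of batch 2 (1.05). SOCS3, a feedback inhibitor of cytokine receptors, was higher in HIF-2α KIN (1.39, adjusted p = 2.75e-05, edgeR), and the proteasome subunit PSMB10 was lower with HIF-2α of batch 2 (-1.08).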

How the data were processed

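Poly(A) RNA-seq counts of 42 libraries in 2 batches were used. The authors deposited raw counts per gene: reads were aligned to hg38 with STAR, uniquely aligned reads were kept and HTSeq counted them without strand against GENCODE annotation (GENCODE v32 in the study's methods), after TruSeq or NEBNext preparation of RNeasy-purified RNA with ERCC spike-ins in batch 1 and NEBNext preparation of TRIzol-purified RNA in batch 2. The spike-ins were not used here. Groups came from the labels. From these deposited counts, library totals and TMM factors gave normalized counts, and edgeR 4.0.16 (R 4.3.3, limma 3.58.1) quasi-likelihood tests were fitted with all groups of a batch together, or 18 libraries (WT and the 2 intact constructs of each batch) for differences between batches, over genes that averaged 0.5 normalized counts or more (23410, 28724 and 26763 genes). Calls required a Benjamini-Hochberg adjusted p of at most 0.01 and 2-fold. All tests were two-sided, and the fits were tested on simulated data. Intervals of counts are exact at 95% and, like the floor of 3 counts per library, cover counting error only. Promoters came from RefSeq and positions from GENCODE v44 on GRCh38. The members and lists were chosen with earlier results of these data known. Members called in most comparisons, then those with the largest change, up to 20, are given by library, and others by range or call.

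The reported fits used group means and did not pair libraries by replicate number, which entered only as a block in an alternative. Samples of the same number deviated together (every correlation over 0.1) in 8 comparisons of batch 1 and in none of batch 2. The 8 were HIF-1α, HIF-1αDM, R27E and each KIN clone against WT, the KIN clones, R30E against HIF-1αDM and HIF-2α against R27E. The reported p-values of these comparisons leave this pairing out. Alternatives were DESeq2 1.42.0, RLE factors, other filters, only the groups compared, a replicate block, each library left out, and all libraries numbered 3 left out (for batch 2 chosen after seeing the data).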

Additional observations from a re-analysis of the deposited data

Results flagged for a closer look

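Differences between lines that were themselves tested stood out for 4 genes. IFI27 was higher in HIF-2α KIN than in HIF-1β KIN by a log2 change of 4.51, with changes from WT of 2.29 and -2.22. HERC5 was lower in HIF-2α KIN than in HIF-1β KIN by -1.86 (changes from WT of -1.40 and 0.46). USP18 was lower with HIF-2α than with R27E by -2.04 (-1.72 and 0.31 from WT) and lower than with HIF-2αDM by -1.90 (0.17 from WT for the latter). GBP1 was lower with HIF-2α than with R27E by -1.97 (-1.92 and 0.06 from WT). The clones are 1 clone each, so that clone and tagged gene cannot be told apart. Likewise each transgene is 1 line in a batch, so that line and construct cannot be told apart.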

How the results depend on the processing

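No result changed direction past the threshold under any alternative run. Of the 176 counts of members called under other settings, 143 were within 1.5 times the reported count, and of 154 medians 148 moved by less than 1 SD. The cause of a change was not tested. Of the 125 member calls against WT, 24 were lost without the libraries numbered 3, 22 with only the groups compared, 3 with DESeq2, 1 with no filter and 1 with the block. With only the groups compared in the fit, the count was 2 for HIF-1β KIN, 0 for R27E, 1 between the KIN clones, 0 for R30E against HIF-1αDM, 3 for HIF-2α against R27E and 8 against HIF-2αDM. With no filter on low counts it was 13 for HIF-2α KIN, 12 for HIF-2αDM, 5 between the clones, 10 for HIF-2α against R27E, 10 against HIF-2αDM and 4 for the HIF-2α response between batches. DESeq2 called 11 for HIF-2αDM, 4 between the clones and 9 for HIF-2α against either mutant. RLE factors gave 2 for HIF-1α against HIF-1αDM.

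The replicate block gave 11 for HIF-2αDM, 10 for HIF-2α against R27E, 10 against HIF-2αDM and 5 for the HIF-2α response between batches, and where the numbers pair the samples it changed no other count by more than 1.5 times. In batch 2, where the correlation of same-numbered samples ran from -0.019 to 0.035, the samples share only a number. Among the calls named against WT the block ended that of MX1 with HIF-1α in batch 2 (0.98).

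Without the libraries numbered 3 the count was 2 for HIF-1α against HIF-1αDM, 0 for R30E against HIF-1αDM, 9 for HIF-2α against R27E, 2 for the IDR and 4 for the HIF-2α response. The median became 0.46 for HIF-1α in batch 1, 0.45 for HIF-2αDM, -1.05 for HIF-2α against R27E, 0.37 for HIF-2α/1α, 0.051 for the IDR (from 0.18), and 0.31 and 0.60 for the HIF-1α and HIF-2α responses between batches. With no fold threshold the counts were 28 for HIF-1α, 24 for HIF-2α/1α, 30 for HIF-2α and 34 for HIF-1α/2α in batch 2, 20 for the IDR, 13 for the structured part and 8 for HIF-2α against R27E.

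Leaving out 1 library at a time moved the counts and medians of members against WT as follows. In batch 1 the count ran from 3 to 5 for HIF-1β KIN, 6 to 7 for HIF-2α KIN, 1 to 4 for HIF-1α, 14 to 17 for R30E, 4 to 8 for HIF-1αDM, 6 to 9 for HIF-2α, 4 to 10 for R27E and 3 to 5 for HIF-2αDM, and the median from -0.54 to -0.20, -0.65 to -0.44, 0.27 to 0.33, 0.93 to 1.08, 0.70 to 0.82, 0.089 to 0.22, 0.65 to 0.89 and 0.37 to 0.62 in the same order. In batch 2 the counts were 10 to 12 for HIF-1α, 7 to 8 for HIF-2α/1α, 14 to 17 for HIF-2α and 15 to 20 for HIF-1α/2α, with medians of 0.66 to 0.74, 0.35 to 0.45, 0.62 to 0.79 and 0.66 to 0.90. The direct comparisons gave 2 to 3 between the clones (-0.29 to 0.012), 4 to 9 for HIF-1α against R30E (-0.86 to -0.68), 0 to 4 against HIF-1αDM (-0.62 to -0.48), 0 to 2 for R30E against HIF-1αDM (0.065 to 0.28), 2 to 11 for HIF-2α against R27E (-0.93 to -0.57), 2 to 3 against HIF-2αDM (-0.67 to -0.43) and 2 to 6 for the IDR (0.11 to 0.22). The structured part and both responses between batches stayed at 0, with medians of -0.27 to -0.15, 0.036 to 0.23 and 0.16 to 0.53.

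With 3 libraries a line and a shared WT, single calls near the threshold are the least certain. Counts below 20 per library limit RSAD2, CMPK2, MX2 and IFI44L in the clones. Exons shared with another gene can make the counts uncertain. In GENCODE v44 they are shared on the opposite strand for XAF1, CMPK2, RSAD2, MX1 and ISG15. They are shared on the same strand for DDX58, IFI6 and TRIM22 and on both for IRF9 and IFIT2 (4.15% to 43.2% of exon length). For OAS1, IFIT3 and PARP9 under 2% is shared. Whether each partner gene is also in GENCODE v32, used for the counts, was not checked.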
